A study of Mus musculus with 14 samples.

Results

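H3K27me3 sites at 10 genes of the pluripotency network were examined in mouse fibroblasts. The genes were Pou5f1, Nanog, Zfp42, Esrrb, Utf1, Dppa3, Dppa5a, Tdgf1, Tcl1 and Lin28a, and they were taken by name from the 21938 protein-coding genes of the annotation. No measured value entered the rule that chose them. Earlier results of these data were, however, known when these genes and the gene lists used for comparison were chosen. The cells were iMEFs, immortalised mouse embryo fibroblasts in which the floxed Ash2l alleles had been deleted with an inducible Cre and which lived on a lentiviral human ASH2L fused to an FKBP12F36V tag and 2 HA epitopes (FKBP-HA2-ASH2L). ASH2L is a core subunit of the KMT2 complexes, which methylate histone H3 at lysine 4. The compound dTAG-13 is a PROTAC that sends the tagged protein to the proteasome. Of the 14 libraries, 12 were of H3K27me3, with 2 replicates each of the control without dTAG-13 and of each exposure to dTAG-13 (for 30 min, or for 2, 4, 8 or 16 h). The other 2 were input chromatin, from the control and from the 16 h exposure. All groups, the control included, carried the deletion and the fusion protein. The study carried out these time courses in the clone NG3, so the cells stand for 1 clone. The age of the embryos was not given in the sources used here.

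Trimethylation of lysine 27 of histone H3 is set by Polycomb repressive complex 2 and is found at genes that are kept silent, often over broad domains at the promoters of developmental regulators. The pluripotency network is a set of transcription factors, with their targets and cofactors, that maintains the self-renewal of embryonic stem cells. It is shut down in differentiated cells, where some of its genes are kept silent mainly by DNA methylation and others by Polycomb.

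The data consisted of 1 list of 153983 sites, called over all samples, of which 153878 were on the 21 assembled chromosomes. The narrowest site was 200 bp wide. A site is an interval in which the authors' peak caller found more H3K27me3 reads than background, and the list gives its position without any read count or value per library. The list therefore allowed no comparison between control and treated cells and no error between replicates. It does not say in which libraries or how many of them a site was found. The depth behind a site is unknown, so a gene without a site was a gene at which none was called, not a gene shown to lack the mark. RNA was not part of these data. Of 12 fibroblast markers, which this cell type should transcribe, 3 (25%) had a site within 1 kb of a start, against 31.5% of all protein-coding genes. These were Col1a1 (389 bp), Vim (363 bp) and Prrx1 (534 bp), named after their values were seen, and no marker had a site of 1 kb or wider.

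The promoters differed in their content of CpG, the dinucleotide on which CpG islands and many Polycomb domains rest. The bases upstream of both the main start (the most 5′ annotated start) and the RefSeq start were taken from RefSeq promoters of GRCm38.p6, in which 8 of the 10 genes had an entry. At Zfp42 the RefSeq start (position 43307009) lies before the main start (43306980), so the bases shown do not adjoin the latter. Shown are Utf1, the only CpG-rich promoter, Lin28a, which lay under a wide site at a lower CpG ratio, Tdgf1, which had a narrow site, and Nanog and Zfp42, which had none. Sequences run 5′ to 3′ in the direction of transcription and CpG dinucleotides are in capitals. They lay at chr7:139943606-139943788 on the plus strand, chr4:134018842-134019066 on the minus strand, chr9:110946159-110946408 on the minus strand, chr6:122707239-122707488 on the plus strand and chr8:43307010-43307259 on the minus strand.
Utf1: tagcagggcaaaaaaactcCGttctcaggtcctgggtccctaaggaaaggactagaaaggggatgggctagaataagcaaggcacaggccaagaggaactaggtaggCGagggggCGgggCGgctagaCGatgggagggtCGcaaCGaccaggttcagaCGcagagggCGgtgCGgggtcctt
Lin28a: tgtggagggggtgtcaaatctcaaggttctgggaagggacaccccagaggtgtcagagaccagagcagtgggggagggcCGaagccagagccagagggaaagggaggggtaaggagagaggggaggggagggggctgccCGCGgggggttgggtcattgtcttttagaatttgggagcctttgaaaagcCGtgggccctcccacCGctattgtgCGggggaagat
Tdgf1: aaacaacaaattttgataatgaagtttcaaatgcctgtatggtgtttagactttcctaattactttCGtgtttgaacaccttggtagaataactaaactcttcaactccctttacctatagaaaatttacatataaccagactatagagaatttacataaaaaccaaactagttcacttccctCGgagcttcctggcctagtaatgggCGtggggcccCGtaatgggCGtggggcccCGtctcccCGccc
Nanog: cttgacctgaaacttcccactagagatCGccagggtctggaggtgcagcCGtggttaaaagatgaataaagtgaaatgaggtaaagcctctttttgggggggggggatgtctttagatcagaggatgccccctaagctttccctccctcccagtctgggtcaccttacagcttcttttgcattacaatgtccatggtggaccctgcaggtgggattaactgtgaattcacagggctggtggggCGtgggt
Zfp42: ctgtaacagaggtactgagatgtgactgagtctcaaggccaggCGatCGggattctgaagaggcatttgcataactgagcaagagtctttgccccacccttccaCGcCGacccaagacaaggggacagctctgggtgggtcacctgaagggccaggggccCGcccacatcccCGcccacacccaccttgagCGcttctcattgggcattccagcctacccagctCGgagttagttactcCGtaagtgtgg
The 183 bases of Utf1 held 10 CpG, the 225 bases of Lin28a 6, the 250 bases of Tdgf1 7, those of Nanog 3 and those of Zfp42 9. The median over 32851 RefSeq promoters was 6 CpG in 250 bases, with quartiles of 2 and 16. In Tdgf1 the CpG were crowded into the last bases before the start. The core of the octamer motif (TTTGCAT, searched on both strands), which POU factors such as OCT4 recognise, was present in the upstream bases of Nanog and Zfp42 and in none of the other 6 genes, against 4.12% of all promoters. The GC box (GGGCGG, both strands) was present in 5 of 8, namely Pou5f1, Zfp42, Tdgf1, Utf1 and Tcl1, against 32.7% of all promoters. The letters TATAAA were in none of the 8 and in 12.4% of all promoters. These matches describe the sequence of the window and are not binding sites.

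A site lay within 1 kb of at least 1 annotated start in 5 of the 10 genes, Pou5f1, Lin28a, Esrrb, Tdgf1 and Utf1, compared with 31.5% of all protein-coding genes. With so few genes, 5 of 10 is no more than a description (95% Wilson interval 23.7 to 76.3%). The sites were of unlike size. Lin28a, Esrrb and Utf1 had sites of 11726, 14896 and 12250 bp at a start, where Pou5f1 and Tdgf1 had none wider than 609 and 515 bp. At Esrrb the wide site lay at internal starts, and the sites within 1 kb of its main start measured 702 and 583 bp. Sites of at least 1 kb at a start were thus present in 3 of 10 genes (20.1% of all genes), and the same 3 were past 5 kb (8.69% of all genes). Nanog, Zfp42, Dppa3, Dppa5a and Tcl1 had no site within 1 kb of a start. When the gene body was added, Tcl1 joined for a site of 200 bp, which gave 6 of 10 (48.0% of all genes). A site covered a start itself in 4 genes, Lin28a, Esrrb, Tdgf1 and Utf1 (21.6% of all genes). Together the 10 genes had 35 annotated starts, and 13 of them were covered, all in these 4 genes. Starts of the same gene often lay under the same site, so they are not separate cases. The share over all annotated starts of the genome was not computed. The median distance from a gene's nearest start to a site was 2.81 kb, against 5.29 kb over all genes.

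**Figure D1:**
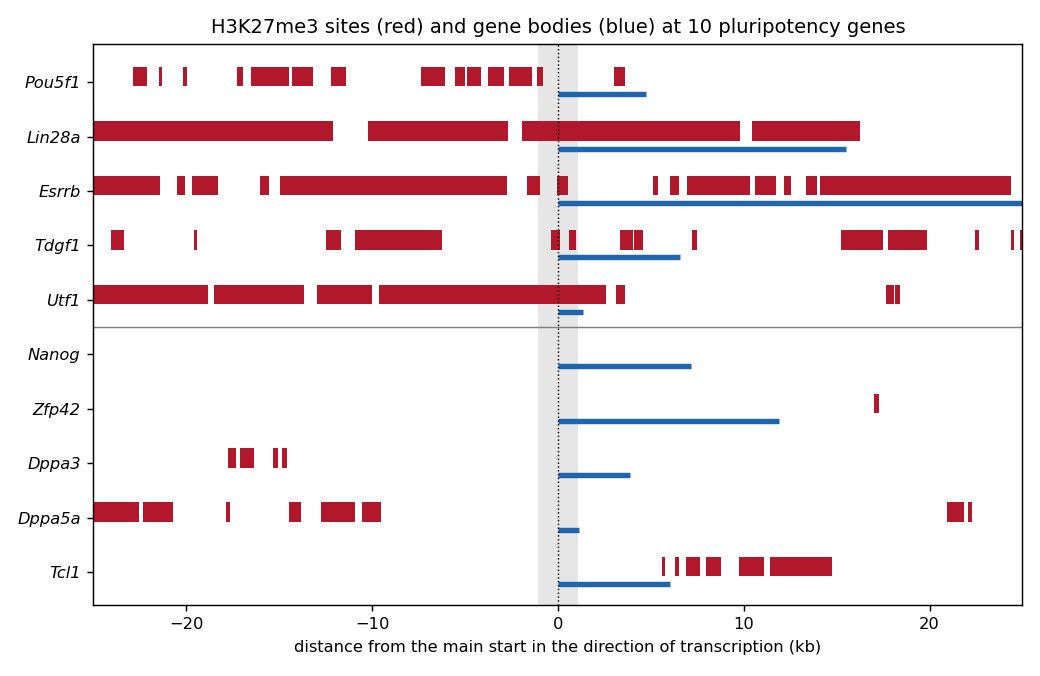
Position of H3K27me3 sites (red blocks) and gene bodies (blue lines) within 25 kb of the main start of each of the 10 genes, with distance in kb along the direction of transcription on the x axis and 1 gene per row. The grey band marks 1 kb either side of the main start, and the genes above the grey line had a site within 1 kb of any start, which for Pou5f1 were a site at the edge of the band and one near an internal start. Wide blocks crossed the start of Lin28a and Utf1, and no block lay anywhere in the window of Nanog.

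The transcription factors of the core network were of both kinds. Pou5f1 encodes OCT4, the POU factor without which the inner cell mass does not form. At this gene (chr17:35506018-35510772, plus strand) a site of 329 bp ended 811 bp before the main start (chr17:35504879-35505207). A second site of 609 bp (chr17:35509019-35509627) had its centre in an intron, and its near edge was 198 bp past the nearest of the internal starts. None of its 6 starts was covered. The sites covered 12.8% of the gene body, so that most of Pou5f1 was free of sites. Upstream the picture was another: 13 sites lay in the 25 kb before the main start and 1 in the 25 kb after it, the widest of them 2018 bp. The next gene upstream, the class I histocompatibility gene H2-Q10, was covered by sites over 100% of its body, while Tcf19, 1.96 kb downstream, had no site at a start. This region of the histocompatibility complex is also held by alternate strain loci of the assembly. Of the 75-base windows within 1 kb of the main start, 99.7% were found there a second time, and whether such loci were part of the authors' reference is not given in the sources used here.

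Nanog, a homeobox factor that sustains self-renewal, lay at chr6:122707489-122714633 on the plus strand in a stretch of 69.9 kb without any site. Its nearest site was 33.6 kb downstream (chr6:122741198-122744049, 2852 bp) and overlapped a start of Slc2a3, which encodes a glucose transporter. Of the 10 genes, Nanog was the farthest from a site when all sites were counted, but with only sites of at least 500 bp or at least 1 kb Zfp42 was farther, at 144939 bp against 33630 bp for Nanog. Within 1 kb of its main start all 75-base windows were found only at this place on the chromosomes.

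Esrrb encodes an orphan nuclear receptor that acts with OCT4 and NANOG, and it was the longest of the genes. Over its 160.5 kb (chr12:86361117-86521628, plus strand) and its start windows it held 40 sites of 210 to 14896 bp, with a median of 1987 bp. Of these, 26 were at least 1 kb wide, 8 at least 5 kb and 3 at least 10 kb. All of its 5 starts were covered. The main start lay in a site of only 583 bp, and the starts 60.5 and 60.8 kb further in lay together in the widest site (chr12:86417355-86432250, 14896 bp). Those at 109 and 143 kb were in sites of 3785 and 11190 bp. Sites covered 78.9% of the gene body, 92.1% of the exon bases and 78.3% of the intron bases. Of the 39 gaps between neighbouring sites, 35 were shorter than 1 kb, with a median of 436 bp, and the longest was 10822 bp. Among 2492 protein-coding genes of at least 100 kb, 20 (0.803%), Esrrb included, were covered to this extent, and the median of such genes was 0.586%. The nearest genes on either side were far off. Gpatch2l, at 69.3 kb, had no site at a start and Vash1, at 157 kb, had one of 13110 bp.

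Zfp42 encodes REX1, a zinc finger protein long used to mark naive stem cells. It lay at chr8:43295063-43306980 on the minus strand, with no site in its body, and its nearest site, of 281 bp, was 16.96 kb downstream of a start. The stretch without sites around it measured 50.7 kb. Of the 10 genes, Zfp42 had the emptiest surroundings, with 2 sites within 100 kb of the main start, which covered 0.324% of the bases. Its neighbours Triml2 and Adam26b had no site at a start.

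Utf1, a chromatin-associated factor of undifferentiated cells, lay whole in a single wide site. The gene (chr7:139943789-139945112, plus strand) was covered over 100% of its body by a site of 12250 bp (chr7:139934138-139946387), which ran from 9.65 kb before the start to 2.60 kb after it. The same site overlapped Kndc1, the next gene upstream, which itself was covered over 93.5% of its body and had a site of 14322 bp at a start. The wide site at Utf1 was therefore shared with its neighbour. On the other side 6430531B16Rik, 27.2 kb away, had no site at a start.

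Dppa3 and Dppa5a belong to the genes named for developmental pluripotency association, and neither had a site in its body. Dppa3, also called Stella, protects the maternal genome from demethylation in the zygote. It lay at chr6:122626410-122630272 on the plus strand, 14.6 kb downstream of a site of 271 bp near Gdf3, and in a stretch of 39.9 kb without sites. Dppa3 and Nanog are neighbours, with their main starts 81.1 kb apart and no protein-coding gene between them. Between the 2 genes there were 8 sites of 200 to 5516 bp, which covered 16.8% of the gap, and neither gene was touched by one. Because they share these surroundings, Nanog and Dppa3 are not independent examples. Dppa5a encodes a small KH-domain protein (chr9:78367052-78368177, minus strand). Its nearest site, of 1013 bp, was 9.54 kb upstream and overlapped a start of the neighbouring oocyte gene Ooep, and the stretch without sites around it measured 30.5 kb. Of the 75-base windows within 1 kb of its start 69.4% were found at no other place on the chromosomes, and 34.5% of those in its body, whereas the other 9 genes had at least 95.8% such windows near the main start. The part of repeated sequence in the absence of a site at Dppa5a was not tested.

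Tdgf1 encodes CRIPTO, the coreceptor of the ligand NODAL at the cell surface. At this gene (chr9:110939603-110946158, minus strand) 4 sites of 356 to 705 bp were listed. The one at the promoter (chr9:110946043-110946557, 515 bp) ran from 399 bp before the main start to 115 bp after it and covered 3 of the 4 starts. The others had their centres in introns. In all, 25.2% of the gene body was covered, in short pieces, unlike the unbroken cover of Utf1. The neighbours Fam240a and Lrrc2 had wider sites at a start, of 3409 and 4675 bp.

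Tcl1 encodes a coactivator of the kinase AKT. It lay at chr12:105216750-105222793 on the minus strand and had no site within 1 kb of any of its 6 starts. Its only site, of 200 bp (chr12:105217006-105217205), was 5.42 kb from the nearest start and centred on an untranslated or non-coding exon near the end of the gene. Within 25 kb of the main start it was the first of 6 sites, all downstream, and from its edge through the gene and beyond 45.2 kb were free of sites. Tcl1b4, a gene of the same family 9.76 kb away, had no site at a start, and Tunar, at 111 kb, had one of 6909 bp.

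Lin28a encodes an RNA-binding protein that blocks the maturation of let-7 microRNAs. Nearly all of this gene was covered. A site of 11726 bp (chr4:134009060-134020785) ran from 1.94 kb before the main start to 9.78 kb after it and covered all 4 starts. After a gap of 667 bp a site of 5790 bp (chr4:134002603-134008392) went on past the end of the gene (chr4:134003330-134018841, minus strand). Sites covered 95.7% of the body, 100% of the exon bases and 94.2% of the intron bases. Dhdds, 2.41 kb downstream of Lin28a, had no site at a start, so the covered stretch ended between these genes. On the other side Zfp683 was covered over 100% of its body, with a site of 16587 bp.

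The surroundings differed along with the starts. Within 100 kb of the main start, sites covered 27.01% of the bases at Pou5f1, 27.97% at Tdgf1, 35.8% at Utf1, 44.6% at Lin28a and 58.6% at Esrrb. At the genes without a site at a start the share was 0.324% at Zfp42, 9.53% at Dppa3, 10.4% at Tcl1, 10.6% at Nanog and 11.3% at Dppa5a. The 5 values of one set lay above the 5 of the other. With the gene's own body and start windows taken out, the shares were 27.4 to 44.4% and 0.346 to 11.4%, again without overlap. The median over all protein-coding genes was 4.67%, with quartiles of 0.797 and 15.8%. Over the whole genome the medians differed in the same direction, at 13.4% for the 6912 genes with a site at a start and 2.42% for the 15026 genes without. Genome-wide the groups overlapped, however, with quartiles of 4.35 and 29.5% for genes with a site and 0.400 and 9.76% for genes without. The 4 genes without a site other than Zfp42 were therefore above the genome-wide median of genes without one, in regions that did hold sites, at a distance. No test was made, since start and surroundings were read from the same list. The nearest protein-coding genes on either side differed less. Among 20 such neighbours 11 had a site at a start, where the share over all protein-coding genes was 31.5%. These were 6 of 10 beside genes with a site and 5 of 10 beside genes without one. The latter 10 include Nanog and Dppa3, each counted as a neighbour of the other and neither with a site.

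**Figure D2:**
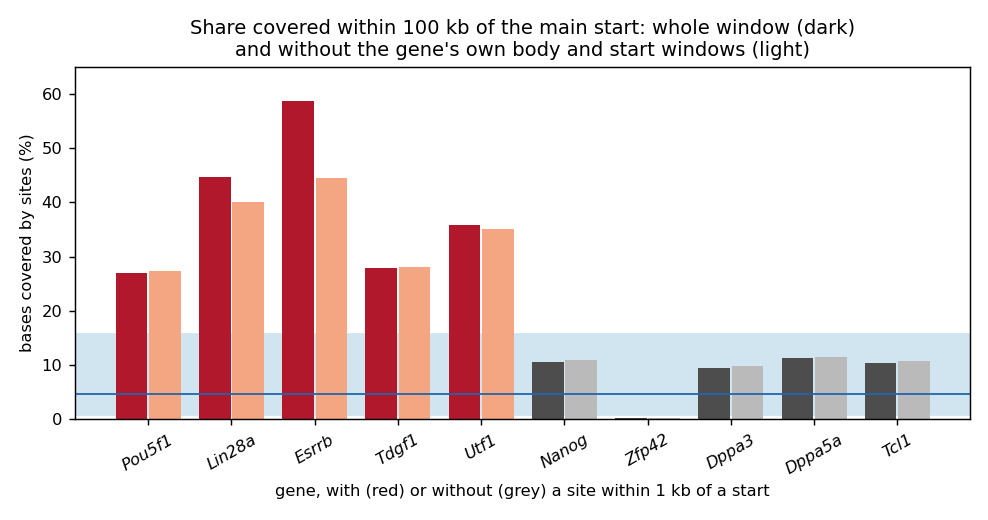
Share of bases covered by H3K27me3 sites (y axis, percent) within 100 kb either side of the main start of each gene (x axis), for the whole window (dark bars) and without the gene's own body and start windows (light bars). Red bars are genes with a site within 1 kb of a start and grey bars genes without, the blue line and band are the median (4.67%) and quartiles of all protein-coding genes, and every red bar stood above every grey one.

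CpG content did not separate the genes. CpG-rich promoters were those with at least 50% GC and an observed to expected CpG ratio of at least 0.6 in the 500 bp either side of the main start. Utf1 alone passed, with a ratio of 0.798, 56.6% GC and 64 CpG, so 1 of 10 was CpG-rich compared with 44.4% of all genes. Tdgf1 reached a ratio of 0.602 but only 45.7% GC. In the remaining 8 the ratio was between 0.283 at Esrrb and 0.503 at Zfp42, which is a middle range: 9 of the 10 genes were in deciles 4 to 6 of all genes. The ratios of genes with a site (0.283 to 0.798, median 0.384) and without (0.303 to 0.503, median 0.441) overlapped. Pairs of like ratio fell on both sides. Esrrb at 0.283 and Nanog at 0.303 were close, as were Lin28a at 0.384 and Tcl1 at 0.417. Over all genes the share with a site was 23.3% in the lowest decile of the ratio, 43.9% in decile 5 and 18.6% in the highest. It was 25.5% for CpG-rich promoters and 36.3% for the others, and with sites of at least 1 kb 16.9 and 22.6%. In deciles 4 and 5, which hold 8 of the 10 genes, this share was highest, at 42.5 and 43.9%.

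**Figure D3:**
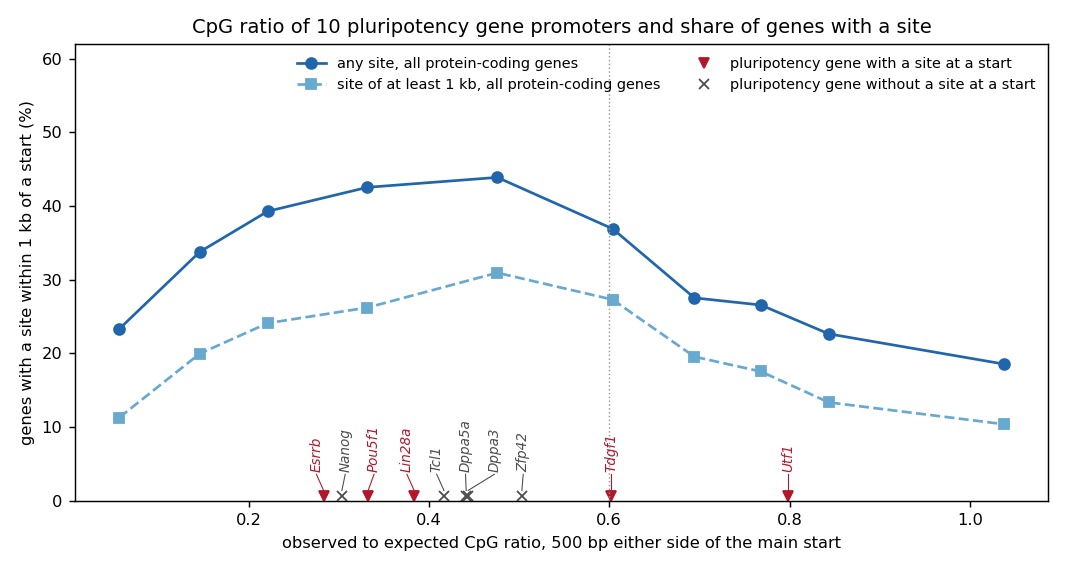
Share of all protein-coding genes with a site within 1 kb of a start (y axis, percent) in each of 10 deciles of the promoter's observed to expected CpG ratio (x axis, points at the middle of each decile), for any site (solid line) and for sites of at least 1 kb (dashed line). Markers at the bottom give the ratio of each pluripotency gene, with red triangles for genes with a site and grey crosses for genes without, which were mixed along the axis, and the dotted line is the CpG-rich limit of 0.6.

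Other genes of the same network were looked at in the same way. Of 25 such genes, 18 had a site within 1 kb of a start (72.0%, 95% Wilson interval 52.4 to 85.7%), 14 one of at least 1 kb and 8 one of at least 5 kb. In 15 of them a site covered a start, and the median distance from a start to a site was 0 kb. Among the transcription factors named here, the widest site at a start was 14910 bp at Sall4, 14100 bp at Otx2, 11813 bp at Nr5a2, 7415 bp at Prdm14, 3993 bp at Sox2, 3636 bp at Tfcp2l1 and 2936 bp at Nr0b1, and at Klf5 it was 226 bp. Klf2, Klf4, Tbx3 and Foxd3 had none. Klf4 and Tbx3 also act in differentiated tissues. At Foxd3 100% of the 75-base windows near the start were also held by a patch of the assembly. Among the signalling genes, a site of 58564 bp lay over Fgf4, and those at Nodal, Lefty2, Gdf3 and Lefty1 measured 5225, 4002, 743 and 547 bp. NODAL is the ligand for which CRIPTO is the coreceptor. Lin28b, the paralogue of Lin28a, had a site of 2698 bp at a start. The regulator of DNA methylation Dnmt3l had one of 6769 bp, Fbxo15 one of 1323 bp and Tet1 one of 500 bp. Dppa2, Dppa4 and L1td1 had none, as was the case for Dppa3 and Dppa5a, and their nearest sites were 7308, 12467 and 3958 bp away.

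Genes of other programmes that fibroblasts do not use gave a frame for these counts. Of 12 proneural factors 11 had a site at a start (91.7%) and of 14 transcription factors of gut, liver and pancreas 12 (85.7%), all of them with a site of at least 1 kb. The widest of the first list were at Neurod2 (46227 bp) and Olig2 (33872 bp) and of the second at Cdx2 (26548 bp) and Onecut1 (23623 bp). Of 15 germline genes 2 had a site, 9639 bp at Tex101 and 584 bp at Tdrd1, the latter named after its value was seen. By sites at a start the 10 pluripotency genes, with 5 of 10, were between the developmental regulators and the germline genes. With the gene body added they were below the germline genes, at 6 of 10 (60%) against 11 of 15 (73.3%), with 48.0% over all protein-coding genes. That count takes any overlap with the body, and gene length was not taken into account. The median share of the body covered had the reverse order, at 8.06% for the pluripotency genes and 1.43% for the germline genes. The median distance to a site was 6.82 kb for the germline genes and 0 kb for both lists of developmental factors. No difference between lists was tested. In the germline list 10 of 15 promoters were CpG-rich.

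**Figure D4:**
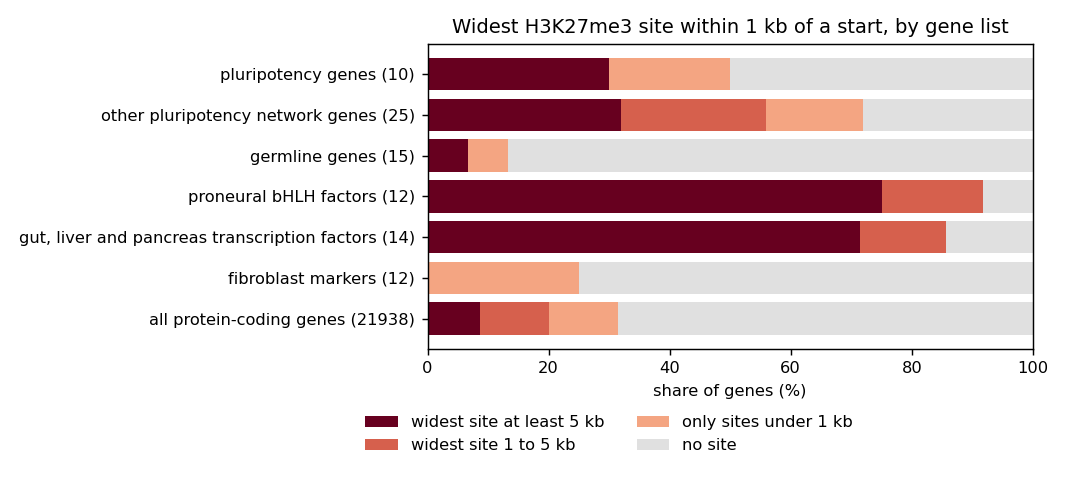
Share of genes (x axis, percent) by the width of the widest H3K27me3 site within 1 kb of a start, for the 10 pluripotency genes, 5 further lists and all protein-coding genes, with the number of genes in brackets. Dark red stands for at least 5 kb, red for 1 to 5 kb, light red for narrower sites and grey for no site. The pluripotency genes divided into 3 with very wide sites (at Esrrb only at internal starts), 2 with narrow sites only and 5 with none.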

How the data were processed

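Chromatin of 12 H3K27me3 and 2 input libraries was sequenced. The authors trimmed the reads, aligned them with BWA to mm10, filtered them with SAMtools, merged replicates, scaled libraries to the lowest coverage and called broad peaks with MACS. The threshold of the calls, and whether they were made before or after merging, are not given in the sources used here. The deposited list holds positions only, read as counted from 0 and printed as counted from 1. It had 0 columns of per-library values left without a sample. The tests of each time against the control that had been planned for values per library could not be run.

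Sites were compared with the GENCODE M21 annotation and sequence of GRCm38.p6 in Python 3.11.15 (pandas 2.3.3, numpy 2.4.6, pysam 0.24.0). A gene was counted when a site overlapped, by at least 1 base, the window 1 kb either side of any annotated start, or its body. Distances run from the nearest start to the nearest edge of a site. The CpG ratio is the number of CpG times the length over the product of the C and G counts. Uniqueness was assessed with exact matches of 75-base windows. Intervals are 95% Wilson intervals and cover the counting of genes only. The functions for overlap, distance, coverage and joining of sites and for the uniqueness of windows were tested on simulated data. Alternatives were the width of sites, joining, the window, the overlap, the choice of starts and the size of the surroundings, the last chosen after seeing the data.

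The genes and lists were chosen with earlier results of these data known. Named were the 10 genes, the nearest protein-coding gene on either side, the gene nearest to their nearest site, every gene of the other pluripotency list but 1 that is counted but not reported here by name, and up to 5 genes of each other list with a site of at least 1 kb at a start. Promoter sequences came from RefSeq (GRCm38.p6).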

Additional observations from a re-analysis of the deposited data

How the results depend on the processing

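With only sites at least 1 kb wide, 3 genes had a site within 1 kb of a start (Lin28a, Esrrb and Utf1) and 3 in the body or at a start, and the median distance from a start to a site rose to 7894.5 bp, by construction since narrower sites were dropped. With sites at least 500 bp wide, sites joined over 1 kb or 5 kb, windows of 500 bp, 2 kb or 5 kb, an overlap of 100 bases, or the main or coding starts only, 5 genes had a site at a start wherever this was computed. The distance of single genes moved by over 1.5 times in 8 of 60 values. The largest move in bp was that of Zfp42, from 16961 to 144939 bp with sites of at least 500 bp or at least 1 kb, since its near site is 281 bp wide. Zfp42 then took the place of Nanog as the farthest gene. Among the other moves, Tdgf1 went from 0 to 6253 bp and Pou5f1 from 198 to 1389 bp with sites of at least 1 kb. Pou5f1 was also 811 bp from a site when only the main start was used and 0 bp with joining over gaps under 5 kb. The share covered around a gene moved as much in 6 of 20 values with 50 kb or 500 kb either side, chosen after seeing the data, and genes with and without a site at a start did not overlap in it at either size. Pou5f1 counts as a gene with a site through sites of 329 and 609 bp only. No paired analysis was possible because positions are all that the list gives, and leaving out a replicate could not be done either. Depth per site is unknown, so narrow or absent sites could reflect depth as well as the mark, and this was not tested.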
